A study of Mus musculus with 26 samples.

Results

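The neurotrophin genes Ntf3 and Bdnf and the receptor genes Ntrk2, Ntrk3, Ngfr and Sort1 were followed through nuclear RNA of mouse brain. They are 6 of the 27502 entries of the counts table and were taken by the Ensembl identifier that GENCODE M21 pairs with each symbol. All 6 were present. Brain nuclei came from 6 to 12 week old mice of 3 transgenic lines, each carrying enhanced green fluorescent protein (EGFP) fused to the ribosomal protein Rpl10a. On the B6.FVB strain background, the neuron line carried Tg(Snap25-EGfp/Rpl10a)JD362Htz, the astrocyte line Tg(Aldh1L1-EGfp/Rpl10a)JD130Htz and the oligodendrocyte line Tg(Cnp-EGfp/Rpl10a)JD368Htz. Each line gave 4 libraries of sorted nuclei and 4 of presort nuclei, the mixed nuclei before sorting, and in each set of 4 the mice were 2 females and 2 males. There were also 2 libraries of whole-brain cytoplasm, from a male of the astrocyte line and a female of the oligodendrocyte line. Every mouse thus carried an EGFP-Rpl10a transgene, under the Snap25, Aldh1L1 or Cnp promoter. How nuclei were sorted is not given in the sources used here, and sorted populations are named by line. Replicates of a nuclear group are separate mice.

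Neurotrophins are secreted growth factors that support the survival of neurons and adjust their synapses in the adult brain. They are made as precursors; mature forms bind Trk receptor tyrosine kinases, which signal through adaptor proteins to the MAP kinase, PI3 kinase and phospholipase C-gamma pathways, whereas precursor forms bind p75 together with sortilin-family receptors. Neurotrophin-3, from Ntf3, prefers TrkC, from Ntrk3, and brain-derived neurotrophic factor, from Bdnf, prefers TrkB, from Ntrk2. Ntrk2 and Ntrk3 are each known to give both kinase-bearing and truncated receptors, and counts per gene do not separate those forms.

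Windows of 250 bases upstream of annotated starts are shown for both ligand genes, which were highest together in sorted neurons, and for Ntrk2, which was highest in sorted astrocytes. They come from RefSeq (GRCm38.p6), which matched 4 of the 6 genes with 11 windows, and are printed 5′ to 3′ on the gene's strand. Capitals mark the letters CANNTG, the E-box, and TGACG, the core of a cAMP response element, each searched on both strands. The windows are Ntf3 at the second of its starts, chr6:126164961-126165210 on the minus strand; Bdnf at the third of its starts, chr2:109692186-109692435 on the plus strand; and Ntrk2, chr13:58806319-58806568 on the plus strand.
Ntf3: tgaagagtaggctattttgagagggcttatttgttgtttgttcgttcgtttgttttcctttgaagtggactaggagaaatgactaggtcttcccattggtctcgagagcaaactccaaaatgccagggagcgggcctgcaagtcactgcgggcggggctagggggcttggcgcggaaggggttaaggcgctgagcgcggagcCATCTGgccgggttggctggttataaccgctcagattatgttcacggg
Bdnf: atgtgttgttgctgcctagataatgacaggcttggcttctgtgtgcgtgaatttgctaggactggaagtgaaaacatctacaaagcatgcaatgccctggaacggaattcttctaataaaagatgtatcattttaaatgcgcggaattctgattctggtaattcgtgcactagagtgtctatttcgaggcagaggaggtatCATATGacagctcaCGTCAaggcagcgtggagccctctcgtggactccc
Ntrk2: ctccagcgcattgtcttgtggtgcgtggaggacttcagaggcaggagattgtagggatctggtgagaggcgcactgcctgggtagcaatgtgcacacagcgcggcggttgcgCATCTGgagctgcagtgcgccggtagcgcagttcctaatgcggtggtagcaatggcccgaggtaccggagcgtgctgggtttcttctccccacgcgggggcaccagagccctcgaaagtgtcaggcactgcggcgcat
Bdnf is known for alternative promoters, of which some respond to neuronal activity, and windows were taken at 7 Bdnf starts. Of the 11 windows, only the Bdnf window printed here held TGACG, and the windows at the other Bdnf starts did not. Those letters were present in 17.8% of 32851 mouse windows of the same length. CANNTG was present in 10 of the 11 windows and in 66.2% of all windows, and GGGCGG, the GC box, in 5 of the 11 and in 32.7% of all. The longer TGACGTCA, which contains TGACG, was in 0 of the 11 and in 1.55% of all. These are matches of letters in short windows only.

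Depth ran from 134357 to 3239445 counts in sorted nuclei and from 147826 to 3274488 in presort nuclei. Most presort libraries were shallow, with a median of 260451 counts, against 4461568 and 3885312 in cytoplasm. Levels are given as CPM, a gene's counts per 1000000 counts of its library. Sorted oligodendrocyte replicate 36 stood apart, with 7674 genes detected against 11136 to 16575 in the other sorted libraries and 0 counts of GFP. Most results of the 6 genes against sorted oligodendrocytes are also given without it. GFP was at 0 to 52.9 CPM in sorted oligodendrocytes, below every presort library of that line (57.5 to 96.2 CPM). In the other lines sorted nuclei were above presort nuclei. The neuron line had 354 to 579 CPM against 147 to 276 CPM, and the astrocyte line 327 to 847 CPM against 77.3 to 139 CPM. The reason was not tested. Sorted astrocyte replicate 30 was the shallowest library, where 3 counts are worth 22.3 CPM. Among sorted nuclei, each type had the highest summed level of its own markers. The summed level of 10 astrocyte markers was 19999 to 23330 CPM in sorted astrocytes, against 671 to 1046 CPM in sorted neurons, and that of 10 oligodendrocyte markers was 28432 to 38281 CPM in sorted oligodendrocytes, against 1296 to 1746 CPM in sorted neurons. The 10 neuron markers summed to 7234 to 8340 CPM in sorted neurons, against 1814 to 2756 CPM in sorted astrocytes and 1214 to 2795 CPM in sorted oligodendrocytes. Of these 10, 5 were called higher in sorted neurons against sorted astrocytes and 5 against sorted oligodendrocytes, with 0 lower. The 7 forebrain excitatory neuron markers summed to 471 to 1342 CPM in sorted neurons. This overlapped sorted oligodendrocytes, at 262 to 925 CPM, and presort nuclei of the neuron line, at 912 to 1410 CPM. In sorted astrocytes that sum was 147 to 327 CPM.

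Among sorted nuclei, the ligand genes were highest in neurons, Ntrk2 was highest in astrocytes and Sort1 was lower in neurons than in oligodendrocytes. Sort1 was also called lower in neurons than in astrocytes, but those libraries overlapped and the call did not hold under several alternatives. Ntrk3 was high in neurons and astrocytes and lower in oligodendrocytes. Ngfr was low in all 3 types. Against sorted astrocytes, 4 of the 6 genes passed in sorted neurons (19.4% of the 13029 genes tested passed), 2 higher (8.02% of genes) and 2 lower (11.4%), and 3 of the 6 did not overlap between the groups (35.1% of genes). Against sorted oligodendrocytes, all 6 passed in sorted neurons (23.1% of genes), 4 higher (10.7%) and 2 lower (12.4%), and 5 of the 6 did not overlap (32.2%). Sorted astrocytes differed from sorted oligodendrocytes in 2 of the 6 (17.1% of genes), both higher in astrocytes (9.62% of genes, with 7.48% lower), and 4 did not overlap (21.9%). The median log2 fold change of the 6 was -0.30 for neurons over astrocytes, 2.58 for neurons over oligodendrocytes and 0.39 for astrocytes over oligodendrocytes, beside 0.05, 0.16 and 0.11 over all genes tested. These comparisons share libraries, so each gene's values are given side by side. They also share a fit, so sorted oligodendrocyte replicate 36 enters neurons over astrocytes too. Without that library 5096 of 13560 genes passed there, against 2534 of 13029 with it. The same 4 of the 6 genes then passed, and Ngfr as well. Tests are edgeR's quasi-likelihood F test with Benjamini-Hochberg adjustment over all genes tested and a threshold of 0.05, and fold changes are TMM-normalized, with the standard error (SE).

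**Figure D1:**
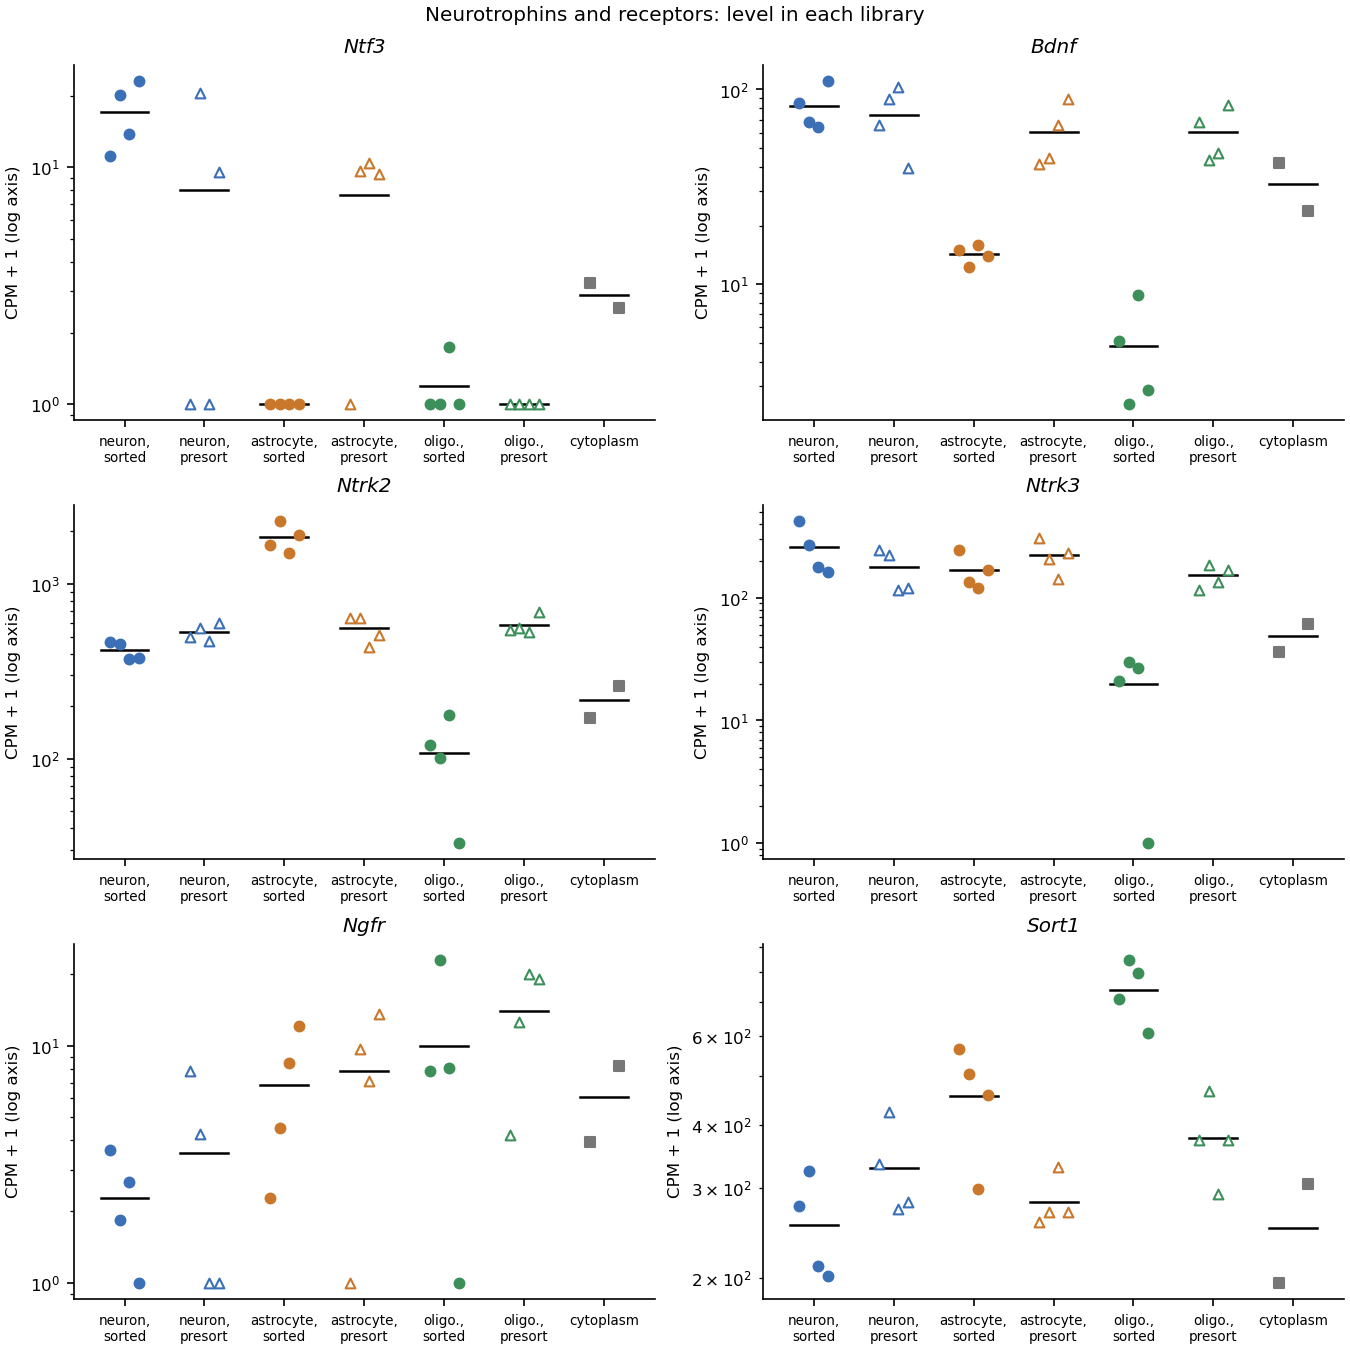
Level of each gene in each library, as CPM + 1 on a log axis, with sorted nuclei as filled circles, presort nuclei as open triangles, cytoplasm as grey squares and group means as bars. Each gene has its own axis range, and a library with 0 counts sits at 1. Ntrk2 in the 4 sorted astrocyte libraries, at 1511 to 2297 CPM, lies above every other library, and Bdnf in sorted glia lies below every presort library.

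Ntf3 encodes neurotrophin-3. Its level was 10.2, 19.2, 12.9 and 22.1 CPM in sorted neurons (27, 46, 31 and 58 counts), against 0 in all 4 sorted astrocyte libraries and 0, 0, 0.745 and 0 CPM in sorted oligodendrocytes, where 1 library held 2 counts. Every neuronal library was above every glial library. A sum of 0 over the sorted astrocytes allows up to 0.362 CPM (3 counts over the group), so Ntf3 was at least 44.4-fold higher in sorted neurons (adjusted p = 0.00038), and at least 27.04-fold without sorted astrocyte replicate 32, the deepest. Against sorted oligodendrocytes the ratio of summed counts per depth was 74.9 (exact 95% interval 20.4 to 623, counting error only; adjusted p = 0.00066). Without sorted oligodendrocyte replicate 34, which held both glial counts, it was at least 35.6-fold higher, and without replicate 36 the call held (adjusted p = 0.00013). Cerebellar granule cell markers moved with it, all 8 detected in each group, with a summed level of 6874 to 12412 CPM in sorted neurons, against 494 to 700 CPM in sorted astrocytes and 335 to 527 CPM in sorted oligodendrocytes. Their part in the result was not tested.

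The 5 genes whose level followed Ntf3 most closely over the 12 sorted libraries, of 11949 compared by Pearson's r of log2 CPM, were Cbln3 (r = 0.983), Syt1 (0.982), Ccser1 (0.980), Gpr149 (0.977) and Scn2a (0.977). Cbln3, a cerebellin of granule cells and one of their markers above, averaged 4867 ± 1338 CPM in sorted neurons, 84.0 ± 5.33 CPM in sorted astrocytes and 97.8 ± 32.4 CPM in sorted oligodendrocytes (SD, n = 4 each). Syt1, the calcium sensor of synaptic vesicles, averaged 3268 ± 568, 219 ± 70.3 and 287 ± 120 CPM in the same 3 groups. Such likeness is a description: the 12 points are 3 cell types and share depth and composition within a library.

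Bdnf encodes brain-derived neurotrophic factor. It had 84.0, 67.2, 63.5 and 109 CPM in sorted neurons, against 14.1, 11.3, 14.9 and 13.0 CPM in sorted astrocytes and 4.09, 1.43, 7.82 and 1.87 CPM in sorted oligodendrocytes. The 3 types did not overlap, and the low end of the neurons was over every glial library. It was higher in sorted neurons than in sorted astrocytes by a log2 fold change of 2.45 ± 0.54 (SE; adjusted p = 0.0037) and than in sorted oligodendrocytes by 4.03 ± 0.57 (adjusted p = 0.00010; 3.90 and 2.6e-06 without sorted oligodendrocyte replicate 36). Between sorted astrocytes and sorted oligodendrocytes the log2 fold change was 1.59 ± 0.55 with adjusted p = 0.059, and without sorted oligodendrocyte replicate 36 it was 1.45 with adjusted p = 0.020. The counts behind the glial levels were low, 2 to 42 in the sorted astrocyte libraries and 3 to 21 in the sorted oligodendrocyte libraries. Annotated antisense genes overlap Bdnf, Ntrk2, Ntrk3 and Sort1, and the counting is not stated to use strand, so overlapping reads cannot be told apart.

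Most like Bdnf were Kcnj3 (r = 0.977), a subunit of a G protein-gated potassium channel, Negr1 (0.975) and Cntn1 (0.975), cell adhesion molecules, Ntn4 (0.966) and Plppr4 (0.965). Kcnj3 averaged 698 ± 161 CPM in sorted neurons, 178 ± 30.4 CPM in sorted astrocytes and 45.0 ± 19.2 CPM in sorted oligodendrocytes (SD, n = 4 each), the same order as Bdnf. None of the 5 genes most like Ntf3 was among those most like Bdnf, though lists this short say little. Ntf3 and Bdnf themselves correlated at r = 0.873 over the same libraries.

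Ntrk2 encodes TrkB, the receptor of BDNF. Its level was 467, 456, 371 and 375 CPM in sorted neurons, against 1677, 2297, 1511 and 1897 CPM in sorted astrocytes and 119, 100.1, 178 and 31.8 CPM in sorted oligodendrocytes. The order astrocyte, neuron, oligodendrocyte held with no overlap between libraries. Sorted neurons were lower than sorted astrocytes by a log2 fold change of -2.32 ± 0.37 (adjusted p = 0.00031) and higher than sorted oligodendrocytes by 1.65 ± 0.36 (adjusted p = 0.0036; 1.40 and 0.00072 without replicate 36). Sorted astrocytes were higher than sorted oligodendrocytes by 3.97 ± 0.40 (adjusted p = 4.0e-06), and by 3.71 without sorted oligodendrocyte replicate 36 (adjusted p = 9.6e-08).

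Among sorted nuclei, markers of some other cells were also highest in sorted astrocytes by summed level. Oligodendrocyte precursor markers (7 of 7 detected in each group) summed to 2440 to 3455 CPM in sorted astrocytes, against 120 to 200.2 CPM in sorted neurons and 116 to 342 CPM in sorted oligodendrocytes; mural and fibroblast markers (9 genes, none at 0 throughout a group) summed to 298 to 455 CPM, against 10.4 to 19.6 CPM and 4.37 to 199.7 CPM. Of the 7 precursor markers, 3 were lower in sorted neurons than in sorted astrocytes (list median -2.21), and 2 were higher and 1 lower in sorted astrocytes than in sorted oligodendrocytes (list median 1.09). Of 5 mural and fibroblast markers tested, 4 were lower in sorted neurons than in sorted astrocytes. Only 1 of the 5 was higher in sorted astrocytes than in sorted oligodendrocytes. Ependymal and choroid plexus markers summed to 605 to 7108 CPM in sorted astrocytes, against 92.6 to 147 CPM in sorted neurons and 44.9 to 169 CPM in sorted oligodendrocytes. Against presort nuclei of the astrocyte line, 2 of 7 precursor markers were higher and 2 lower (list median -0.74). Of 7 mural and fibroblast markers tested there, 1 was higher and 2 lower (list median -1.04). All 5 tested ependymal and choroid plexus markers were higher, beside 13.7% of all genes higher and 15.4% lower. Presort sums were 905 to 1019 CPM for precursor markers and 334 to 629 CPM for mural and fibroblast markers. The part of these cells in the Ntrk2 level was not tested. The closest patterns were those of Timp4 (r = 0.990), a metalloproteinase inhibitor, Kcnn3 (0.988), a calcium-activated potassium channel, Rab34 (0.987), Farp1 (0.986) and Slc1a4 (0.984), a neutral amino acid transporter.

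Ntrk3 encodes TrkC, the receptor of neurotrophin-3. It had 420, 266, 178 and 161 CPM in sorted neurons, against 245, 133, 119 and 165 CPM in sorted astrocytes and 19.8, 29.1, 25.7 and 0 CPM in sorted oligodendrocytes. Neurons and astrocytes overlapped, and all 8 of their libraries were above the oligodendrocytes. The difference between sorted neurons and sorted astrocytes, a log2 fold change of 0.45 ± 0.67, did not pass (adjusted p = 0.74). Sorted neurons were higher than sorted oligodendrocytes by 3.50 ± 0.74 (adjusted p = 0.0028) and sorted astrocytes by 3.05 ± 0.73 (adjusted p = 0.0069). Without sorted oligodendrocyte replicate 36, the library at 0, the values were 3.11 (adjusted p = 1.8e-05) and 2.68 (adjusted p = 7.6e-05). The 5 genes most like Ntrk3 were Arhgef25 (r = 0.989), Kcnt1 (0.988), Noct (0.985), Trmt9b (0.982) and Txndc11 (0.981).

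Ngfr encodes p75, the receptor shared by all neurotrophins. Its counts were few: 7, 2, 4 and 0 in sorted neurons (2.64, 0.835, 1.66 and 0 CPM), against 3, 9, 1 and 36 in sorted astrocytes (1.28, 3.51, 7.44 and 11.1 CPM) and 20, 46, 19 and 0 in sorted oligodendrocytes (6.82, 21.9, 7.08 and 0 CPM). All 3 types overlapped. It was lower in sorted neurons than in sorted oligodendrocytes by a log2 fold change of -3.05 ± 1.01 (adjusted p = 0.038), a call that ended when any of sorted neuron replicates 4, 26 and 28 or sorted oligodendrocyte replicate 12 was left out (adjusted p = 0.11, 0.081, 0.10 and 0.14) and that held without replicate 36 (-3.43, adjusted p = 0.0029). Against sorted astrocytes the value was -2.25 ± 1.04 (adjusted p = 0.16; -2.27 and 0.036 without replicate 36, which enters the shared fit), and between sorted astrocytes and sorted oligodendrocytes -0.80 ± 0.95 (adjusted p = 0.69). The closest pattern to it was weaker than for the other genes, Mnt at r = 0.916, and 3 of its 5 closest genes left its closest 20 when sorted oligodendrocyte replicate 36 was left out.

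Sort1 encodes sortilin, which binds proneurotrophins beside p75 and sorts proteins, BDNF among them, within the cell. Its level was 276, 324, 210.0 and 200.2 CPM in sorted neurons, against 565, 504, 298 and 458 CPM in sorted astrocytes and 710, 844, 796 and 608 CPM in sorted oligodendrocytes. Every oligodendrocyte library was above every other sorted library, while sorted astrocyte replicate 30 lay among the neurons. Sort1 was lower in sorted neurons than in sorted oligodendrocytes by a log2 fold change of -1.96 ± 0.33 (adjusted p = 0.00052; -1.91 and 4.8e-05 without replicate 36). It was also lower than in sorted astrocytes, by -1.04 ± 0.33 (adjusted p = 0.032). This call ended under another scaling (RLE, adjusted p = 0.056) and without the filter on low counts (adjusted p = 0.077). The call also ended when any 1 of 7 of the 8 libraries compared was left out (adjusted p up to 0.13). Between sorted astrocytes and sorted oligodendrocytes the log2 fold change was -0.92 ± 0.32 (adjusted p = 0.064), and -0.86 without sorted oligodendrocyte replicate 36 (adjusted p = 0.032). Most like it were Stxbp3 (r = 0.973), a syntaxin-binding protein of vesicle fusion, Wscd1 (0.946), Prkd3 (0.941), Srgap1 (0.939) and Rhou (0.936).

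**Figure D2:**
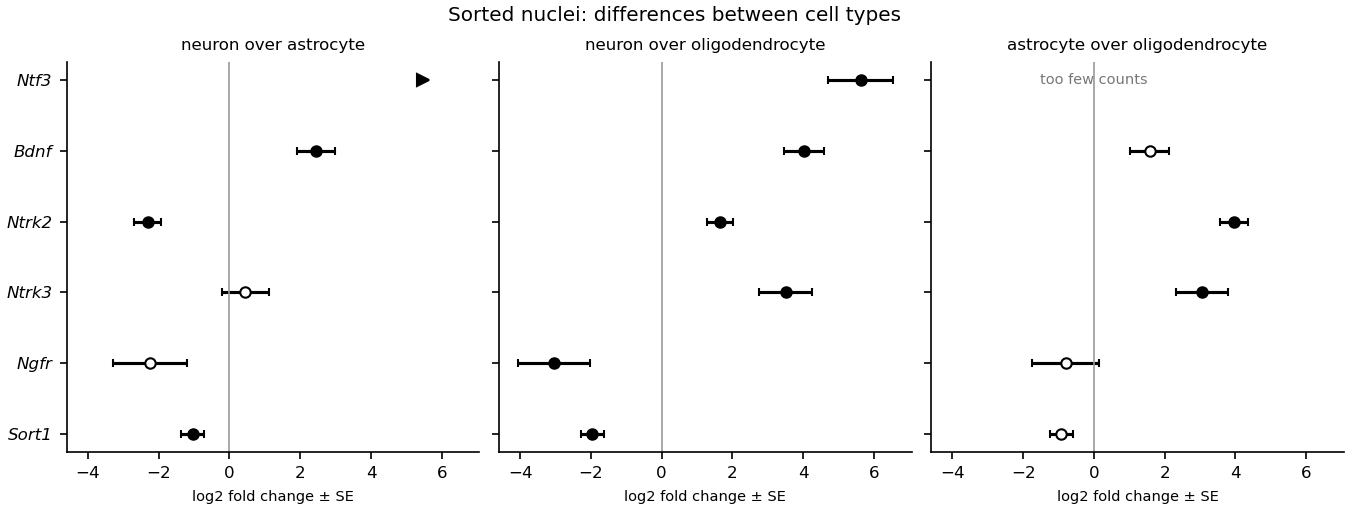
Log2 fold change ± SE of each gene between sorted cell types, on 1 scale for the 3 panels. Filled symbols passed at adjusted p under 0.05 (edgeR) and open ones did not. The triangle marks a lower bound for Ntf3 against astrocytes, where all 4 libraries were at 0. Ntrk2 lies left of 0 for neurons over astrocytes, at -2.32, and right of 0 for neurons over oligodendrocytes, at 1.65.

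Levels of different genes can be set beside each other only per length. Divided by the union of annotated exons (CPM per kilobase of exon), the mean level in sorted neurons was 33.4 for Sort1, 21.6 for Ntrk2, 13.0 for Bdnf, 9.39 for Ntf3, 8.50 for Ntrk3 and 0.372 for Ngfr. Ntrk2 led in sorted astrocytes, at 95.7, with Sort1 next at 60.2, and Sort1 led in sorted oligodendrocytes, at 97.7, with Ntrk2 next at 5.56. The regions counted are not stated, and per length of the whole gene, introns included, Sort1 led in all 3 types, with 5.89 CPM per kilobase against 5.64 for Ntrk2 in sorted astrocytes. The order of Sort1 and Ntrk2 in astrocytes thus depends on which length is used. By GENCODE M21 (GRCm38) the genes are Ntf3 on chromosome 6 (126101412 to 126166910, minus strand), Bdnf on chromosome 2 (109674700 to 109727007, plus), Ntrk2 on chromosome 13 (58806569 to 59133970, plus), Ntrk3 on chromosome 7 (78175959 to 78738012, minus), Ngfr on chromosome 11 (95568818 to 95587735, minus) and Sort1 on chromosome 3 (108284082 to 108361511, plus).

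Other genes of the neurotrophin pathway were described by 4 lists. Their counts stand beside 8.02% of all genes higher and 11.4% lower in sorted neurons than in sorted astrocytes, 10.7% and 12.4% against sorted oligodendrocytes, and 9.62% and 7.48% in sorted astrocytes against sorted oligodendrocytes. Of the other ligands and receptors, 4 of 7 were tested among sorted nuclei, and these were the Vps10-domain relatives of sortilin. Against sorted astrocytes, sorted neurons were higher in Sorcs3 (log2 fold change 3.79 ± 0.83) and Sorcs1 (2.48 ± 0.50) and lower in Sorcs2 (-2.92 ± 0.59), with a list median of 1.52. Sorcs2, whose product binds p75 and proBDNF, averaged 25.97 ± 11.9 CPM in sorted neurons, 176 ± 46.0 CPM in sorted astrocytes and 7.96 ± 5.23 CPM in sorted oligodendrocytes, while Sorcs1 averaged 68.3 ± 18.05, 8.87 ± 6.62 and 181 ± 15.8 CPM in the same groups (SD, n = 4 each). Against sorted oligodendrocytes, sorted neurons were lower in Sorcs1 (-1.87 ± 0.47) and higher in Sorl1 (1.14 ± 0.32), and the list median was 0.82. Sorted astrocytes were higher than sorted oligodendrocytes in Sorcs2 (4.31 ± 0.64) and lower in Sorcs1 (-4.35 ± 0.54) and Sorcs3 (-3.30 ± 0.82; list median -1.36).

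For the processing and release of proneurotrophins, 9 of 14 genes were tested. In sorted neurons 3 were higher and 1 lower than in sorted astrocytes (list median 0.14), and 4 were higher and 1 lower than in sorted oligodendrocytes (list median 0.37). Pcsk1 and Pcsk2, convertases of dense-core vesicles, were higher in sorted neurons than in sorted astrocytes by 4.35 ± 0.81 and 3.82 ± 0.71, and than in sorted oligodendrocytes by 3.47 ± 0.71 and 3.68 ± 0.68. Cadps2, known in mouse cerebellum to aid the release of BDNF, averaged 792 ± 123 CPM in sorted neurons, 43.7 ± 34.4 CPM in sorted astrocytes and 46.6 ± 34.8 CPM in sorted oligodendrocytes (SD, n = 4 each), with log2 fold changes of 3.87 ± 0.89 and 3.83 ± 0.89. Pcsk6, another convertase, ran the other way, at -5.04 ± 0.88 against sorted astrocytes and -3.95 ± 0.83 against sorted oligodendrocytes. Sorted astrocytes were higher than sorted oligodendrocytes in 1 gene, Cpe (2.92 ± 0.50), and the list median was 0.05.

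Trk adaptors and signalling genes numbered 38, of which 36 were tested: 1 was higher and 3 lower in sorted neurons than in sorted astrocytes (list median 0.00), and 0 were higher and 5 lower than in sorted oligodendrocytes (list median -0.38). The docking protein gene Gab1 averaged 13.2 ± 4.51 CPM in sorted neurons, 81.4 ± 18.8 CPM in sorted astrocytes and 443 ± 150 CPM in sorted oligodendrocytes (SD, n = 4 each), and each pair differed, by -2.79 ± 0.47, -5.56 ± 0.52 and, for astrocytes over oligodendrocytes, -2.77 ± 0.46. Shc1, an adaptor that binds activated Trk, was lower in sorted neurons than in sorted astrocytes (-3.61 ± 0.82) and sorted oligodendrocytes (-3.14 ± 0.80), whereas Shc2 was higher in sorted neurons than in sorted astrocytes (3.26 ± 1.05) and Shc3 lower (-3.15 ± 0.74). Sorted astrocytes were lower than sorted oligodendrocytes in 5 of the 36 (list median -0.17), among them Map2k5 (-2.27 ± 0.71). These shares lie below those of all genes called, 19.4%, 23.1% and 17.1%. Without sorted oligodendrocyte replicate 36, of 37 tested, 1 was higher and 8 lower in sorted neurons than in sorted oligodendrocytes, where 4812 of 13560 genes were called. In sorted astrocytes 3 were higher and 5 lower than in sorted oligodendrocytes, where 3566 of 13560 genes were called. Map2k5 for astrocytes then stood at -0.91 and did not pass (adjusted p = 0.11). Calls in the other 3 lists were kept without that library, where 1 more p75 partner passed in each comparison.

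All 12 p75 partners and effectors were tested. Rtn4r, the Nogo receptor that pairs with p75, was higher in sorted neurons than in sorted astrocytes (3.45 ± 0.81) and sorted oligodendrocytes (3.14 ± 0.74), and Lingo1, a co-receptor, was higher than in sorted oligodendrocytes (2.73 ± 0.80). Tnfrsf19, a relative of p75, was highest in astrocytes, at 19.3 ± 8.85 CPM in sorted neurons, 187 ± 49.6 CPM in sorted astrocytes and 5.78 ± 4.27 CPM in sorted oligodendrocytes (SD, n = 4 each). In counts, 1 was higher and 1 lower in sorted neurons than in sorted astrocytes (list median 0.26), 2 higher and 1 lower than in sorted oligodendrocytes (list median 0.19), and 1 higher in sorted astrocytes than in sorted oligodendrocytes (list median 0.03).

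Sorted nuclei were then set against presort nuclei of the same line, which asks how the sorted type differs from the whole brain. Sorting changed 0 of the 5 tested in the neuron line past the threshold, and 3 in each glial line. Bdnf was lower in both glial lines, Sort1 was higher in both, and Ntrk2 was higher in sorted astrocytes but lower in sorted oligodendrocytes. In a mixed sample fewer cells of a type and less RNA per cell cannot be told apart. The sort effect differed between lines for 5 of the 6 genes (24.5% of 12171 genes), with adjusted p = 0.0021 for Ntf3, 0.00018 for Bdnf, 8.9e-08 for Ntrk2, 0.0041 for Ntrk3 and 0.0026 for Sort1, and 0.92 for Ngfr. The value for Ntf3 carries little weight. Its presort counts were 8 in the neuron line, 35 in the astrocyte line and 0 in the oligodendrocyte line. In either glial line alone Ntf3 did not pass the filter on low counts. Without sorted oligodendrocyte replicate 36 Ntf3 was not tested, and the other 4 passed (adjusted p at most 0.00051), beside 3376 of 8285 genes.

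In the neuron line, 0 of the 5 genes tested passed (6.37% of 11024 genes did, 1.27% higher and 5.1% lower) by edgeR and 0 by DESeq2, and 0 had an unadjusted p under 0.05. Ntrk2 was the one gene whose groups did not overlap (13.4% of genes), with 371 to 467 CPM in sorted nuclei, against 469 to 601 CPM in presort nuclei, at -0.23 ± 0.20 (adjusted p = 0.57). Bdnf averaged 81.0 ± 20.8 CPM in sorted nuclei and 73.3 ± 27.9 CPM in presort nuclei (SD, n = 4 each), at 0.26 ± 0.33 (adjusted p = 0.71). Ntf3 had 27 to 58 counts per library in sorted nuclei, against 0, 6, 0 and 2 in the shallower presort nuclei, at 1.27 ± 0.71 (adjusted p = 0.35). Ntrk3 had 161 to 420 CPM in sorted nuclei, against 113 to 245 CPM in presort nuclei, and stood at 0.67 ± 0.34 (adjusted p = 0.30). With presort and sorted libraries of consecutive numbers paired as a block, a pairing the labels do not state, Ntrk3 was higher by 0.65 (adjusted p = 0.032), the 1 gene of the 5 then called, beside 1450 of 11024 genes. With the block Ntrk2 did not pass (adjusted p = 0.38). Without it Sort1 stood at -0.26 ± 0.23 (adjusted p = 0.57). Ngfr was too low to be tested, with 13 counts in the sorted group and 3 in the presort group.

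In the astrocyte line 3 of the 4 genes tested passed (29.1% of 11026 genes), 2 higher (13.7%) and 1 lower (15.4%), and 2 did not overlap (28.1%). Ntrk2 had 1677, 2297, 1511 and 1897 CPM in sorted nuclei, against 636, 642, 437 and 512 CPM in presort nuclei, and was higher after sorting by 1.97 ± 0.25 (adjusted p = 4.5e-06). Bdnf had 11.3 to 14.9 CPM in sorted nuclei, against 40.6, 43.3, 65.0 and 88.1 CPM in presort nuclei, and was lower by -1.99 ± 0.37 (adjusted p = 0.00029). Both pairs of groups were apart. Sort1 had 298 to 565 CPM in sorted nuclei, against 257, 269, 329 and 268 CPM in presort nuclei, and was higher by 0.94 ± 0.26 (adjusted p = 0.0090), with sorted replicate 30 below presort replicate 29. Ntrk3 did not pass (-0.09 ± 0.31, adjusted p = 0.87). Ntf3 and Ngfr were left out by the filter on low counts. Ntf3 summed to 0 counts in sorted nuclei, against 35 in presort nuclei, of which 31 came from presort replicate 29, the deepest of that group. The presort mean, 6.63 ± 4.44 CPM (SD, n = 4), was 18.3-fold over the floor of 0.362 CPM, and 11.1-fold over it without sorted replicate 32. These folds take the presort mean as exact. Presort replicate 5 was at 0, so the groups overlapped. Ngfr summed to 49 counts in sorted nuclei and 25 in presort nuclei and, tested without the filter, stood at -0.06 ± 0.73 (adjusted p = 0.97).

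In the oligodendrocyte line 3 of the 5 genes tested passed (8.35% of 9520 genes), 1 higher (5.12%) and 2 lower (3.24%), and 4 did not overlap (25.7%). Bdnf had 4.09, 1.43, 7.82 and 1.87 CPM in sorted nuclei, against 66.9, 42.3, 46.0 and 81.9 CPM in presort nuclei, and was lower by -3.46 ± 0.70 (adjusted p = 0.013). Ntrk2 had 31.8 to 178 CPM in sorted nuclei, against 532 to 692 CPM in presort nuclei, and was lower by -2.03 ± 0.43 (adjusted p = 0.015). Every sorted library was below every presort library for both genes. Sort1 had 608 to 844 CPM in sorted nuclei, against 291 to 466 CPM in presort nuclei, and was higher by 1.54 ± 0.36 (adjusted p = 0.023). Ntrk3 had 0 to 29.1 CPM in sorted nuclei, against 115 to 185 CPM in presort nuclei, at -2.65 ± 0.85 (adjusted p = 0.077), and without sorted replicate 36 at -2.25 with adjusted p = 0.00015. Ngfr stood at -0.13 ± 1.02 (adjusted p = 0.96), and Ntf3, with 2 counts in sorted nuclei and 0 in presort nuclei, was not tested. With consecutive numbers as a block, none of the 3 passed (Bdnf -3.59, adjusted p = 0.061; Ntrk2 -2.11, 0.058; Sort1 1.53, 0.062), and 281 of 9520 genes did. Leaving out any 1 of the presort libraries, 9, 11, 33 or 35, left 0, 1, 0 and 0 of the 3 calls. Of all genes, 315 of 11515, 302 of 11484, 267 of 11522 and 284 of 11634 were called in these settings. Without sorted replicate 36 all 3 calls held, beside 2069 of 6174 genes. Over all single omissions the log2 fold change of Bdnf lay between -3.91 and -3.20. That of Ntrk2 lay between -2.27 and -1.81 and that of Sort1 between 1.40 and 1.69.

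Pathway genes were counted in the same comparisons. Of all genes, 1.27% were higher and 5.1% lower in the neuron line. These shares were 13.7% and 15.4% in the astrocyte line and 5.12% and 3.24% in the oligodendrocyte line. In the neuron line, 2 of 9 processing genes were higher, Cadps2 (1.21 ± 0.26) and Pcsk2 (0.86 ± 0.22), and 1 lower, Pcsk6 (-2.46 ± 0.49), and 3 of 35 adaptors were lower, among them Gab1 (-1.62 ± 0.38), with 0 of 4 family members and 0 of 12 p75 partners called. In the astrocyte line, 1 of 4 family members was higher, Sorcs2 (2.56 ± 0.33), and 2 lower, Sorcs3 (-4.00 ± 0.56) and Sorcs1 (-2.13 ± 0.42); 2 of 7 processing genes were higher and 2 lower, 4 of 35 adaptors higher and 4 lower, and 2 of 11 p75 partners higher and 4 lower. In the oligodendrocyte line Sorcs1 was higher (2.95 ± 0.58) and Sorcs2 lower (-2.60 ± 0.70) among 4 family members, 1 of 7 processing genes was lower, Pcsk2 (-2.75 ± 0.76), and 2 of 35 adaptors were higher, Map2k5 (4.13 ± 0.999) and Gab1 (3.29 ± 0.53), with 0 of 12 p75 partners called. Without sorted oligodendrocyte replicate 36, Map2k5 was not tested, and 2069 of all 6174 genes tested were called. In that setting 1 of 7 processing genes was higher and 3 lower, 4 of 26 adaptors were higher, and 1 of 11 p75 partners was higher and 3 lower. List medians lay between -1.01 and 0.39, beside 0.07, -0.03 and -0.07 over all genes in the neuron, astrocyte and oligodendrocyte lines.

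**Figure D3:**
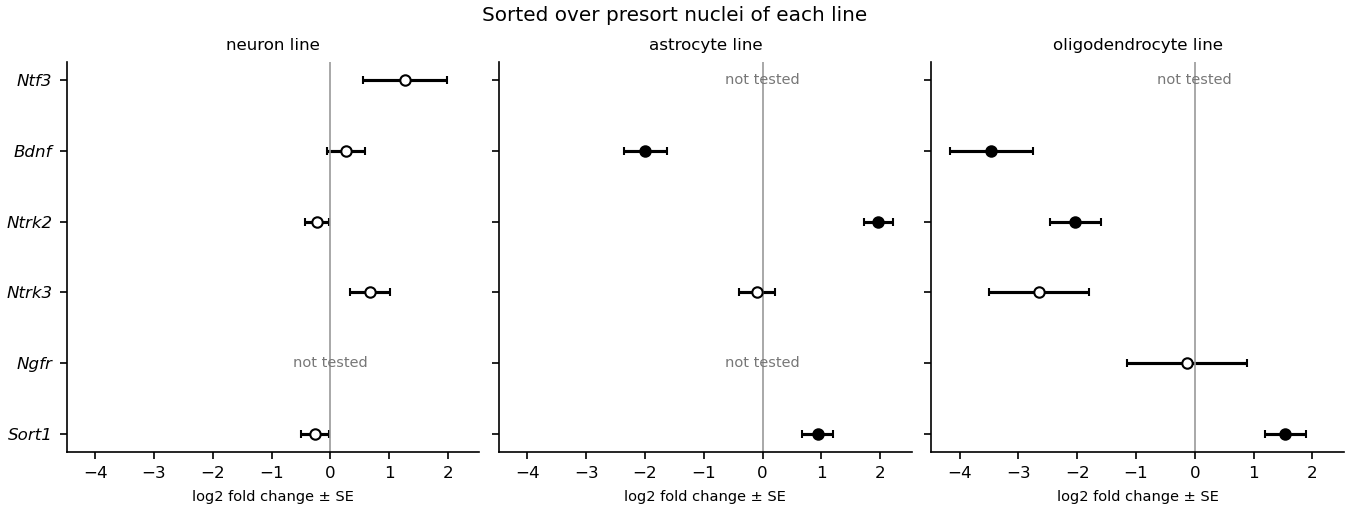
Log2 fold change ± SE of sorted over presort nuclei in each line, on 1 scale for the 3 panels. Filled symbols passed at adjusted p under 0.05 (edgeR), open ones did not, and genes below the filter on low counts are marked as not tested. Ntrk2 lies near 0 in the neuron line, at 1.97 in the astrocyte line and at -2.03 in the oligodendrocyte line.

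Presort nuclei of the 3 lines are the same mixture by design, and here 0 of the 4 genes tested differed among lines (0% of 6049 genes, and 201 genes but 0 of these 4 at an unadjusted p under 0.05, edgeR; DESeq2 was not run). Over the 12 presort libraries, Ntrk2 ranged from 437 to 692 CPM (median 550.1), Sort1 from 257 to 466 (median 310.2), Ntrk3 from 113 to 304 (median 177) and Bdnf from 38.4 to 102 CPM (median 64.9). Ntf3 was at 0 in 7 of the 12 and Ngfr in 3. Their counts over all 12 libraries were 43 and 41, too few to order the presort groups.

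Whole-brain presort nuclei, 12 libraries of the 3 lines, were compared with the 2 cytoplasmic libraries to ask which RNAs lean to the nucleus. Both tested Trk receptor genes were higher in nuclei, and the ligand Bdnf and Sort1 did not pass. Of the 4 genes tested, 2 passed, both higher (50.3% of 7728 genes passed, with 20.1% higher and 30.2% lower), and 2 did not overlap (32.5%). Ntrk2 had 437 to 692 CPM in presort nuclei (median 550.1), against 171 and 259 CPM in cytoplasm, at 0.79 ± 0.26 (adjusted p = 0.014; 0.067 without cytoplasm replicate 1). Ntrk3 had 113 to 304 CPM in presort nuclei (median 177), against 35.4 and 60.5 CPM in cytoplasm, at 1.34 ± 0.38 (adjusted p = 0.0065). Each presort library was above both cytoplasmic libraries for these receptors.

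Bdnf had 38.4 to 102 CPM in presort nuclei, against 40.8 and 22.6 CPM in cytoplasm, at 0.39 ± 0.39 (adjusted p = 0.42), and Sort1 had 257 to 466 CPM, against 194 and 305 CPM, at -0.18 ± 0.27 (adjusted p = 0.60). Groups overlapped for both. TMM scaling moved all fold changes of this comparison by -0.60 on the log2 scale relative to plain CPM, so that ratios of the printed CPM are larger than the fitted folds. On library totals alone, Ntrk2 stood at 1.37, Ntrk3 at 1.91 and Bdnf at 1.02 (adjusted p = 0.039), and Sort1 turned to 0.40 (adjusted p = 0.24). Ntf3 and Ngfr were below the filter, with 10 and 6 counts of Ntf3 and 13 and 28 of Ngfr in cytoplasm. Cell-type markers moved as well: 6 of 6 tested endothelial and 7 of 7 tested mural and fibroblast markers were higher in presort nuclei, while 8 of 10 neuron markers were lower. Of 6 tested oligodendrocyte precursor markers 5 were higher (list median 2.76). Of 9 tested astrocyte markers 3 were higher and 2 lower (list median 1.17), and of 10 oligodendrocyte markers 0 were higher and 4 lower. Their part in the result was not tested.

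Pathway lists were counted beside 20.1% of all genes higher and 30.2% lower in presort nuclei. Of 30 Trk adaptors and signalling genes tested, 4 were higher and 15 lower in presort nuclei (list median -0.89, against -0.12 over all genes), among them Map2k1 (-2.85 ± 0.41), Hras (-2.41 ± 0.42) and Grb2 (-2.31 ± 0.29), links of the chain from activated receptors to MAP kinase. Of 11 p75 partners and effectors, 1 was higher and 4 lower (list median -0.50), among them Arhgdia, which binds p75 (-2.94 ± 0.37), and Bex3 (-2.68 ± 0.30). Of the 7 processing genes tested, 3 were higher and 0 lower (list median 0.64), Pcsk7 (2.43 ± 0.53), Plat (2.17 ± 0.49) and Pcsk6 (1.53 ± 0.51). Of 4 further receptors, Sorl1 alone was higher (1.40 ± 0.33; list median 0.76).

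**Figure D4:**
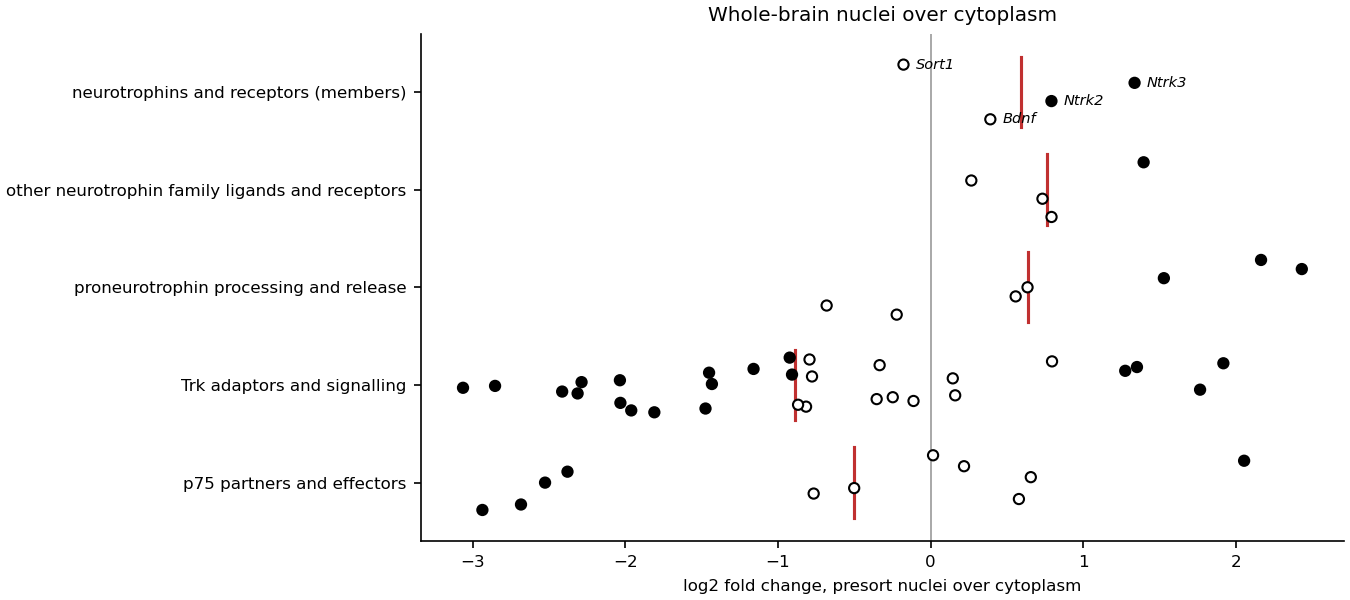
Log2 fold change of presort nuclei over cytoplasm for the neurotrophin and receptor genes tested and for 4 pathway lists, 1 point per tested gene. Filled points passed at adjusted p under 0.05 (edgeR), red bars are list medians, and vertical offsets only separate points. Ntrk2 and Ntrk3 lie at 0.79 and 1.34, and the Trk adaptors centre on -0.89.

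Females were compared with males among sorted nuclei, with cell type in the model. Of the 6 genes 0 passed (0.0461% of 13029 genes, 6 genes, did, and 0.0307% were lower), 0 had an unadjusted p under 0.05, and by edgeR the lowest unadjusted p among them was 0.15, for Ntrk3, with 108 ± 76.9 CPM in females and 186 ± 155 CPM in males (SD, n = 6 each) and a log2 fold change of -0.81 ± 0.54 (adjusted p = 0.88); DESeq2 was not run here. Males carry replicate numbers 1 to 12 and females 25 to 36, so sex and any batch that follows those numbers cannot be told apart.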

How the data were processed

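Per the labels' protocols, RNA was taken up in Trizol, freed of DNA with DNase and amplified by NuGEN's Ovation V2 system. The deposited values are raw counts of 26 libraries, whole numbers with no normalization. The submitters' processing notes name edgeR, STAR, Bowtie2, bedtools and Trimmomatic. Not given in the sources used here are the sorting method, the build and annotation, whether introns were counted, and any use of strand. Symbols came from GENCODE M21 (GRCm38), which named 26495 of 27501 Ensembl identifiers.

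Counts were tested with edgeR 4.0.16 in R 4.3.3 (TMM, filterByExpr with minimum count 10, quasi-likelihood F test, two-sided), adjusted over all genes tested by the Benjamini-Hochberg method with a threshold of 0.05. The standard error is the log2 fold change over the square root of F. The 3 sorted types were fitted together (12 libraries), each line's sorted and presort libraries alone (8), and presort with cytoplasm (14). CPM use the whole library total, GFP included, and a count of 0 allows 3 counts. A fold against such a floor takes the other group's mean as exact. TMM moved fold changes relative to plain CPM by -0.16 (neurons over astrocytes), -0.41 (neurons over oligodendrocytes), -0.25 (astrocytes over oligodendrocytes), 0.12, 0.21 and 0.55 (sorted over presort in the neuron, astrocyte and oligodendrocyte lines) and -0.60 (presort nuclei over cytoplasm) on the log2 scale. Intervals and floors cover counting error only, as the kit is not described as adding molecular identifiers. Replicates were not copies: chi-square per degree of freedom between any pair was at least 1.97.

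The design text says that presort RNA came from each mouse, and titles number presort and sorted libraries consecutively, but no label states the pairs. Deviations from group means of consecutive libraries correlated at 0.20 to 0.32 in the 4 pairs of the neuron line, and at over 0.1 in 7 of all 12 pairs (lowest -0.00075). The genes, pathway and marker lists were chosen with earlier results of these data known. Examples in a pathway list are up to 4 that passed with the largest change, of which some are not reported here; genes of like pattern are the 5 with the highest Pearson's r of log2 CPM (prior count 2) over the 12 sorted libraries. Alternatives were DESeq2 1.42.0, RLE factors, library totals without TMM and consecutive numbers as a block (both chosen after seeing the data), no filter, all 24 nuclear libraries, sex as a covariate, each sex alone, only the groups compared, and each replicate left out.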

Additional observations from a re-analysis of the deposited data

Results flagged for a closer look

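In 3 of 36 sets of 4 libraries (6 genes in 6 nuclear groups) 1 library lay far from the other 3; chance flags about 1 in 20 such sets. Ntf3 had 0.745 CPM (2 counts) in sorted oligodendrocyte replicate 34 and 0 in the other 3; with 3 libraries at 0 any count stands apart, so that rate does not apply there. Ntf3 was at 0 in presort astrocyte replicate 5, against 8.39 to 9.47 CPM in the other 3 libraries of that group, but 3 counts in that library are worth 20.3 CPM. Sort1 had 329 CPM in presort astrocyte replicate 29, the deepest library of its group, against 257 to 269 CPM in the others.

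The change in sorted against presort nuclei differed between the 3 lines, tested jointly over both interaction coefficients with edgeR, for Ntf3 (adjusted p = 0.0021), Bdnf (0.00018), Ntrk2 (8.9e-08), Ntrk3 (0.0041) and Sort1 (0.0026). Presort counts of Ntf3 were few, so its value carries little weight. Ntrk2 moved by 1.97 in the astrocyte line, -2.03 in the oligodendrocyte line and -0.23 in the neuron line, where it did not pass.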

How the results depend on the processing

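Of 772 values of single genes under an alternative, 685 kept direction and side of the threshold. In females only, none of the 4, 6, 2 and 3 genes called for neurons over astrocytes, neurons over oligodendrocytes, astrocytes over oligodendrocytes and the oligodendrocyte line was called (0 each); each of these groups then held 2 libraries, sorted oligodendrocyte replicate 36 among them, and 46, 123, 67 and 0 of all genes passed. Astrocytes over oligodendrocytes gave 4 genes with DESeq2, with all 24 nuclear libraries, in males only and without replicate 36. Of all genes, 3102 of 15415, 3316 of 12171, 3022 of 13361 and 3566 of 13560 were called in these settings. Presort nuclei over cytoplasm gave 1 without the filter, beside 6815 of 19532 genes. Over single omissions the counts ran from 3 to 5, 5 to 6, 2 to 4 and 0 to 4 in the first 4 comparisons, from 2 to 4 in the astrocyte line, from 1 to 2 for presort nuclei over cytoplasm and from 4 to 5 for the difference between lines. Calls over all genes moved too. They ran from 1889 of 13356 to 5096 of 13560, 2324 of 13416 to 4812 of 13560, 1705 of 13356 to 3566 of 13560 and 267 of 11522 to 2069 of 6174 in the first 4. In the astrocyte line they ran from 1833 of 5223 to 3670 of 13170. For presort nuclei over cytoplasm they ran from 3693 of 7687 to 4539 of 8673, and between lines from 2231 of 8265 to 3376 of 8285. Directions turned for some values, none of them called as reported. Ngfr, astrocytes over oligodendrocytes, stood at 1.34 in females and ran from -1.80 to 0.097 over omissions. Ntrk3 in the astrocyte line ran from -0.35 to 0.14 over omissions. Ngfr in the oligodendrocyte line stood at 0.061 without the filter and 1.45 in males, and ran from -0.41 to 0.19 over omissions. Sort1, presort nuclei over cytoplasm, stood at 0.40 without TMM and ran from -0.29 to 0.071 over omissions. Bdnf there ran from -0.026 to 1.11 over omissions, the lower without cytoplasm replicate 2. Ngfr by sex stood at 0.17 without oligodendrocyte 36. Ntf3, astrocytes over oligodendrocytes, did not turn (-2.88 to 0 over omissions). It fell to 0 in males and without sorted oligodendrocyte replicate 34, which held its only counts there. The causes were not tested. In the astrocyte line Bdnf was not called in males (adjusted p = 0.19) nor Sort1 in females (0.32). With consecutive numbers as a replicate block, a pairing the labels do not state, 1 gene was called in the neuron line (Ntrk3), 3 in the astrocyte line and 0 in the oligodendrocyte line. Of all genes, 1450 of 11024, 2970 of 11026 and 281 of 9520 were then called. In the oligodendrocyte line 2 of 4 pairs correlated at 0.1 or less. Each sorted library correlated best with its own number in 8 of 12 pairs. Depth limits Ntf3 and Ngfr most, with few counts in presort libraries.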
